A study of Mus musculus with 2 samples.

Results

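The genes described here encode the aminoacyl-tRNA synthetases, with the tRNA exportin Xpot beside them. They were chosen by symbol, as all genes named by an amino acid letter followed by ars with an optional 1, 2, a or b, together with Eprs and Xpot. Of 22587 gene symbols in the count matrices, 38 met this rule. They comprised 18 genes of the cytosolic forms, 17 genes of the mitochondrial forms (names ending in 2), Gars and Kars, which serve both compartments, and Xpot. All 38 had at least 20 unique molecular identifiers (UMIs, single captured mRNA molecules) over both libraries, from 140 for Ears2 to 4828 for Eprs.

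Each aminoacyl-tRNA synthetase loads its amino acid onto the matching tRNAs, the step that gives the genetic code its meaning at the ribosome. Cytosol and mitochondria translate separately, and the mitochondrial enzymes are encoded in the nucleus and imported to charge the tRNAs that serve the few proteins encoded by mitochondrial DNA. Several cytosolic synthetase genes are known targets of ATF4, the transcription factor of the integrated stress response, which also drives Ddit3 and Trib3. OPA1 is the inner membrane GTPase that fuses mitochondria and shapes their cristae.

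YFP+ cells from the hippocampus of 3 CT and 3 Opa1 cKO mice were pooled within each genotype, giving 1 CT and 1 Opa1 cKO library of the 3′ single-cell assay of 10x Genomics. Both groups carried Nestin-CreERT2, which recombines in nestin-expressing cells and marks them and their progeny, and the ROSA26YFP reporter. The Opa1 cKO mice carried Opa1-Flox, and both groups were given tamoxifen (TAM) at 8 weeks of age and collected at 12 weeks, 4 weeks post-TAM. The CT library is titled WT, and its control is described as Opa1-Flox negative although the strain entry of both libraries lists Opa1-Flox. With 1 library per genotype no comparison between genotypes could be tested, and all intervals given are exact 95% intervals of counting error, which leave out differences between mice and between library preparations. Cells are compared by the UMIs of a gene, summed over cells and scaled to the same total of UMIs in every group (CPM), and by log2 ratios of it, and a ratio of 1.5-fold is used as a fixed mark of size.

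After filtering, 1790 CT and 3764 Opa1 cKO cells were kept, with 5051491 and 12483473 UMIs. Clusters that the markers of quiescent stem cells and astrocytes set apart, called the NSC pool-like cells, held 1378 CT and 2586 Opa1 cKO cells with medians of 2494 and 2961 UMIs. Nearly all CT cells (99.7%) lay in a cluster led by Cxcl14, Slc7a10 and Hsd11b1, while 1792 of the Opa1 cKO cells and 4 CT cells formed another, led by Nupr1, Acsbg1, Gdf15 and Slc7a11, so that what sets this cluster apart and its library cannot be told apart. Among kept cells, 9 barcode sequences occurred in both libraries. Opa1 itself was seen in NSC pool-like cells with 70 UMIs in CT and 69 UMIs in Opa1 cKO, 18.5 (14.4 to 23.4) against 8.11 (6.31 to 10.3) CPM, a log2 ratio of -1.19 (-1.69 to -0.69). The assay reads the 3′ ends of transcripts, and which exons the floxed allele loses is not given in the sources used here, so the counts do not by themselves check the deletion.

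In NSC pool-like cells the cytosolic synthetases were higher in Opa1 cKO than in CT, and the mitochondrial forms much less so. Of the 18 cytosolic genes, 15 were at least 1.5-fold higher, against 13.9% of the 11303 genes compared, and 10 were at least 2-fold higher, against 3.85% of all genes. None was 1.5-fold lower, against 13.4% of all genes. Their median log2 ratio was 1.14, with a range from -0.09 to 2.03, where the median of all genes was 0.03. Summed over the 18 genes, the level was 662 (637 to 689) CPM in CT against 1538 (1511 to 1564) CPM in Opa1 cKO, with a log2 ratio of 1.22 (1.15 to 1.28). The counting intervals of 16 of the 18 genes lay above the median of all genes, with Farsa and Qars as the exceptions.

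**Figure D1:**
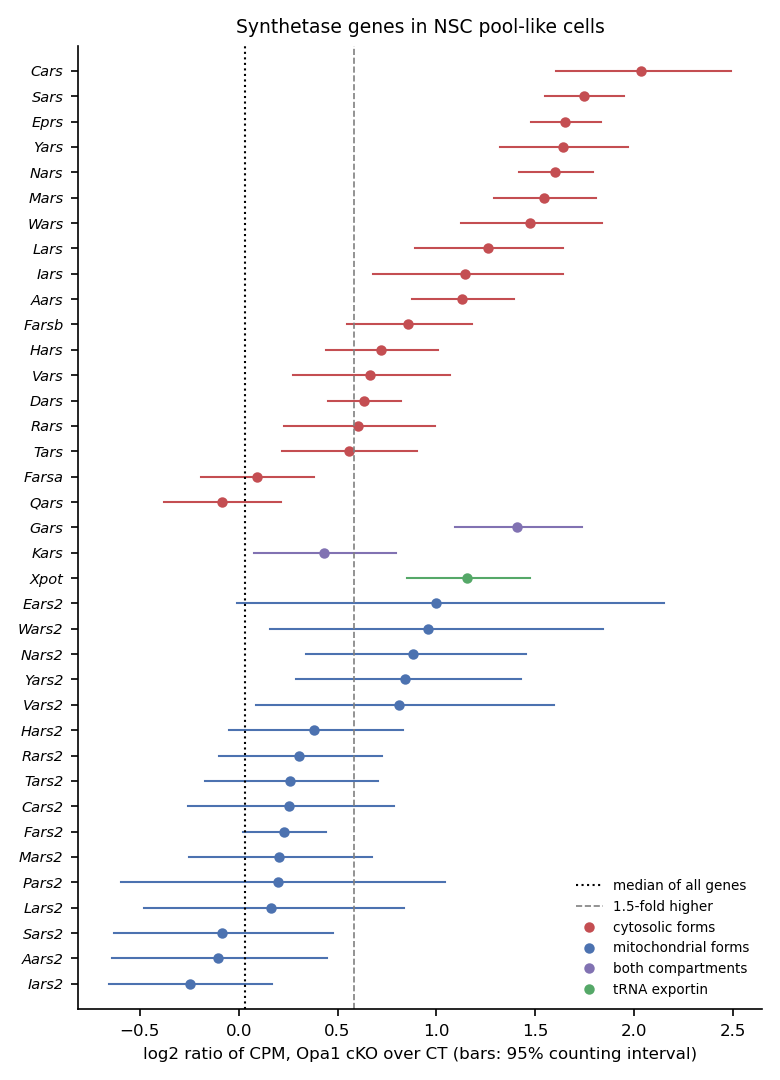
Log2 ratio of CPM, Opa1 cKO over CT, for the genes in NSC pool-like cells, with exact 95% counting intervals and grouped by compartment. The cytosolic genes run from -0.09 (Qars) to 2.03 (Cars), and the mitochondrial forms from -0.25 (Iars2) to 1.00 (Ears2).

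The cysteinyl enzyme Cars (chr7:143557230-143600090, minus strand, mm10) had the highest ratio, from 12.97 CPM and 49 UMIs in CT to 53.1 CPM and 452 UMIs in Opa1 cKO, with a log2 ratio of 2.03 (1.61 to 2.49). Sars, which charges serine and also supplies the tRNA on which selenocysteine is made (chr3:108424865-108445209, minus strand), was at 62.2 and 209 CPM, with a log2 ratio of 1.75 (1.55 to 1.95). Eprs, a fused enzyme for glutamate and proline (chr1:185363044-185428360, plus strand), was at 79.1 and 249 CPM, a log2 ratio of 1.65 (1.48 to 1.83). Their counting intervals lay above a doubling in all 3 genes. Yars (tyrosine, chr4:129189760-129219607, plus strand) stood at 24.1 and 75.01 CPM, and Nars (asparagine) at 71.99 and 219 CPM, with log2 ratios of 1.64 (1.32 to 1.97) and 1.60 (1.42 to 1.79). Mars (methionine, chr10:127296221-127311786, minus strand) followed at 38.1 and 111 CPM, a log2 ratio of 1.55 (1.29 to 1.81), and Wars (tryptophan) at 20.6 and 57.4 CPM, 1.47 (1.13 to 1.84). The next genes in this order were Lars (leucine, 1.26), Iars (isoleucine, 1.14) and Aars (alanine, 1.13), all more than 2-fold higher. Neighbours in this order had counting intervals that overlapped.

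A lower group of cytosolic genes passed 1.5-fold but not 2-fold. In it the Farsb subunit of the phenylalanyl enzyme (27.8 and 50.3 CPM), Hars (histidine, 34.7 and 57.1 CPM), Vars (valine, 18.3 and 28.9 CPM) and Rars (arginine, 20.1 and 30.6 CPM) had log2 ratios of 0.86, 0.72, 0.66 and 0.60. Dars, which charges aspartate, was at 81.0 CPM in CT against 126 CPM in Opa1 cKO, with a log2 ratio of 0.64 (0.45 to 0.82). Tars (threonine) lay just under 1.5-fold, at 24.9 and 36.6 CPM and a log2 ratio of 0.56 (0.22 to 0.90). Farsa, the catalytic subunit of the phenylalanyl enzyme (chr8:84856989-84869257, plus strand), and Qars, which charges glutamine (chr9:108507706-108515941, plus strand), did not show this difference. Farsa was at 38.6 and 41.2 CPM, a log2 ratio of 0.09 (-0.19 to 0.38), and Qars at 37.1 and 34.9 CPM, -0.09 (-0.38 to 0.21). The subunits of the phenylalanyl enzyme thus had different ratios, with intervals that did not overlap, since Farsb had 0.86 (0.55 to 1.18).

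Synthetases of the cytosol are known to fall into those bound in the multi-synthetase complex and those that are free, and into structural classes. Of the 8 complex members counted here (Eprs, Iars, Lars, Mars, Qars, Rars, Dars and Kars), 6 were at least 1.5-fold higher with a median log2 ratio of 0.89, and of the 11 free cytosolic synthetase genes 9 were, with a median of 1.13. Over all genes the share at least 1.5-fold higher was 13.9% and the median log2 ratio 0.03. Class I genes had a median of 1.37, with 9 of 10 at least 1.5-fold higher, and class II genes a median of 0.79, with 7 of 10. Eprs, a fused enzyme, was counted with class I alone. The lowest and highest members of each of these groups spanned more than the distance between the medians, so single genes of the groups overlapped. Summed, the log2 ratio was 1.28 (1.20 to 1.36) for the free genes and 1.08 (0.99 to 1.17) for the complex members. Without Kars the complex members had 1.12 (1.03 to 1.22), which overlapped the free genes. The sums were 1.34 (1.25 to 1.43) for class I and 1.11 (1.03 to 1.18) for class II, with intervals apart.

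The mitochondrial forms differed less between the libraries. Of 17 genes, 5 were at least 1.5-fold higher, none reached 2-fold and none was 1.5-fold lower, against 13.9%, 3.85% and 13.4% of all genes. Their median log2 ratio was 0.26, and their summed level was 239 (223 to 255) CPM in CT against 293 (281 to 305) CPM in Opa1 cKO, with a log2 ratio of 0.29 (0.18 to 0.41). The summed intervals of the cytosolic and the mitochondrial forms did not overlap. The 5 genes were Ears2, Wars2, Nars2, Yars2 and Vars2. Ears2 (glutamate) rested on 10 and 45 UMIs and had a log2 ratio of 1.00 (-0.01 to 2.15), and Wars2 (tryptophan) was at 4.23 and 8.23 CPM, 0.96 (0.16 to 1.84). Of the 13 mitochondrial forms with at least 100 UMIs, 2 were 1.5-fold higher, against 12.6% of all genes with that depth. These were Nars2 (asparagine, 9.26 and 17.05 CPM) with a log2 ratio of 0.88 (0.34 to 1.46) and Yars2 (tyrosine, 8.999 and 16.1 CPM) with 0.84 (0.29 to 1.43). At lower depth Vars2 (valine) had a log2 ratio of 0.81 (0.09 to 1.60).

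The other mitochondrial forms described here lay between log2 ratios of -0.25 and 0.38. Fars2, the phenylalanyl enzyme of mitochondria (chr13:36117412-36726280, plus strand), was at 68.6 and 80.4 CPM, a log2 ratio of 0.23 (0.02 to 0.44). Hars2 (15.9 and 20.7 CPM), Rars2 (18.3 and 22.6 CPM) and Tars2 (16.4 and 19.6 CPM) had log2 ratios of 0.38, 0.31 and 0.26. Cars2 had 0.25, Mars2 0.20, Pars2 0.20 and Lars2 0.16. All of these but Fars2 had intervals that held 0. Below 0 were Sars2 (11.1 and 10.5 CPM), Aars2 (11.6 and 10.8 CPM) and Iars2 (20.4 and 17.2 CPM, chr1:185284726-185329396, minus strand), with -0.09 (-0.63 to 0.48), -0.11 (-0.64 to 0.45) and -0.25 (-0.66 to 0.17). Hars and Hars2 lie head to head on opposite strands with overlapping starts, far from the 3′ ends that this assay reads.

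Gars and Kars, whose transcripts give the glycyl and lysyl enzymes of both compartments, differed from each other. Gars (chr6:55038007-55079500, plus strand) was at 25.1 CPM in CT against 66.8 CPM in Opa1 cKO, with a log2 ratio of 1.41 (1.09 to 1.74). Kars (chr8:111993443-112011323, minus strand) was at 23.3 and 31.4 CPM, a log2 ratio of 0.43 (0.08 to 0.79), so that the interval of Gars lay above that of Kars. Xpot (chr10:121587380-121626332, minus strand), which carries mature tRNAs out of the nucleus, was at 27.3 and 60.8 CPM, a log2 ratio of 1.16 (0.85 to 1.48). Gars and Xpot thus stood among the cytosolic genes that were more than 2-fold higher, and Kars with those below 1.5-fold.

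**Figure D2:**
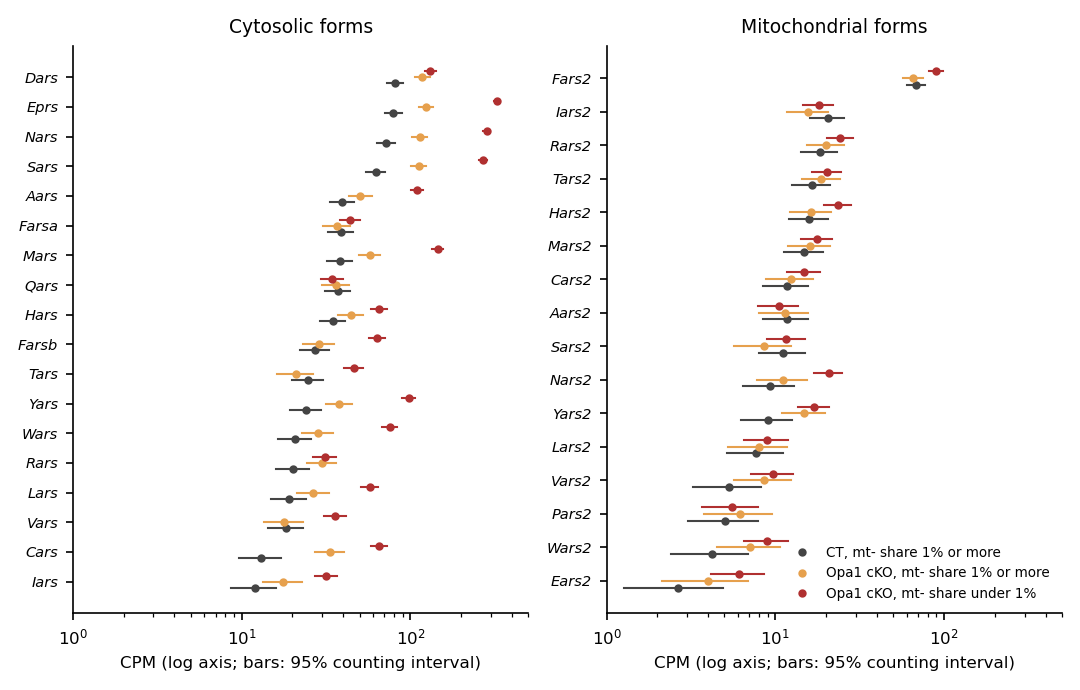
Level of the cytosolic and mitochondrial forms in CPM, gene by gene, on a log axis in NSC pool-like cells of CT and of Opa1 cKO at or above a 1% mitochondrial transcript share, and of Opa1 cKO under it, with exact 95% counting intervals. Eprs stood at 79.3 CPM in CT against 326 CPM in Opa1 cKO cells under 1%, while Qars stood at 37.1 and 34.2 CPM.

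Pairing both compartments by amino acid gave 17 pairs, with Eprs set against both Ears2 and Pars2 and the summed Farsa and Farsb against Fars2. The cytosolic ratio exceeded the mitochondrial ratio in 16 pairs, with a median difference of 0.72 on the log2 scale. Valine was the exception, with 0.66 for Vars and 0.81 for Vars2. The intervals of the pair were apart in 7 pairs, those of serine, cysteine, proline, isoleucine, methionine, alanine and leucine, and in none of them was the mitochondrial form the higher. The widest distances were for serine (1.75 against -0.09) and cysteine (2.03 against 0.25).

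**Figure D3:**
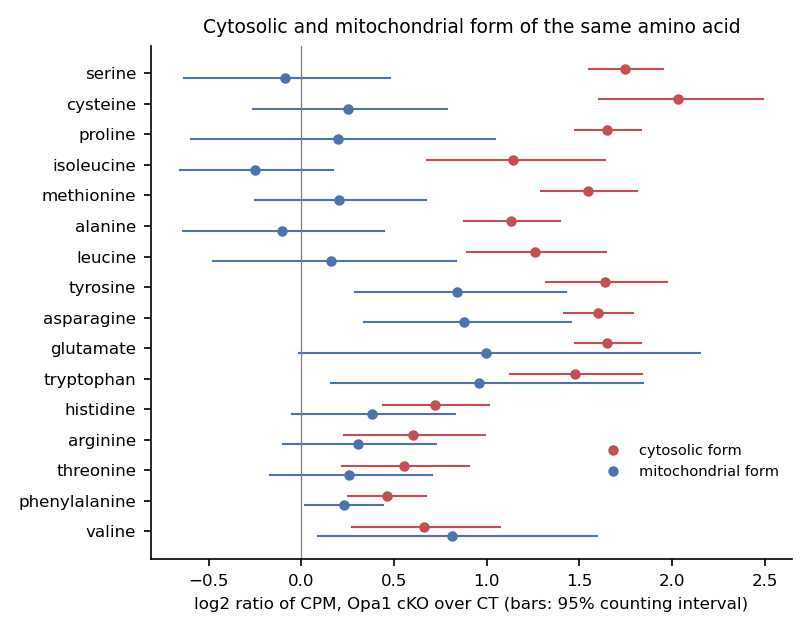
Log2 ratio of the cytosolic form and of the mitochondrial form by amino acid in NSC pool-like cells, Opa1 cKO over CT, with exact 95% counting intervals. The cytosolic point lies to the right in every pair drawn except valine, where it lies to the left.

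Counted within the same cells, with no other gene in the denominator, mitochondrial forms made up 26.5% (25.02 to 28.0, exact Clopper-Pearson interval) of the UMIs of cytosolic and mitochondrial forms in CT and 16.0% (15.4 to 16.6) in Opa1 cKO. The mitochondrial forms summed to 902 UMIs in CT (239 CPM) against 2491 UMIs in Opa1 cKO (293 CPM), from totals of 3778053 and 8505459 UMIs. The lower share in Opa1 cKO came with a higher, not a lower, summed level of the mitochondrial forms.

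Opa1 cKO cells of the NSC pool differ in the share of their UMIs that come from the 13 mRNAs encoded in mitochondrial DNA, and the same genes were compared along it. Under 1% lay 1578 Opa1 cKO cells (61.0%) and 3 CT cells (0.218%). The medians of this share were 0.670% in Opa1 cKO and 5.24% in CT. This cut is a point on a range and not a boundary between cell types, since 749 Opa1 cKO cells had a share between 0.5% and 2%. Of the cells under the cut 99.9% lay in the cluster led by Nupr1, and of the cells at or above it 78.6% in the cluster led by Cxcl14. Both groups came from 1 library and had nearly the same depth, with medians of 2962 and 2958 UMIs per cell.

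Within the Opa1 cKO library, the cells under 1% carried more cytosolic synthetase mRNA than the others, at 1911 (1874 to 1949) against 933 (900.2 to 967) CPM, a log2 ratio of 1.03 (0.98 to 1.09). At least 1.5-fold higher were 13 of the 18 genes, against 15.1% of 10795 genes, and 11 were at least 2-fold higher, against 3.23%. None was 1.5-fold lower, against 6.20% of all genes. The median log2 ratio was 1.12, where that of all genes was 0.17. Of the 17 mitochondrial forms, 3 were at least 1.5-fold higher, or 1 of the 9 with at least 100 UMIs, against 13.6% of all genes of that depth. With the cut at 0.5% the summed cytosolic log2 ratio was 0.60, with 8 genes past 1.5-fold, against 6.79% of all genes. The mitochondrial forms summed to 252 (235 to 269) CPM in the other cells and 318 (303 to 334) CPM under 1%, a log2 ratio of 0.34 (0.22 to 0.46), with a median of 0.27.

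The genes that led this comparison were largely those with the highest ratios between libraries. The cells under 1% are also part of the Opa1 cKO side between libraries, so the comparisons are not independent. Wars was at 28.3 CPM in cells at or above 1% and 75.3 CPM under it, a log2 ratio of 1.41 (1.08 to 1.75), and Eprs at 124 and 326 CPM, 1.40 (1.24 to 1.56). Yars (37.9 and 97.9 CPM), Mars (57.3 and 145 CPM), Nars (114 and 283 CPM) and Sars (112 and 269 CPM) had log2 ratios of 1.37, 1.34, 1.31 and 1.26. These 6 genes all passed 2-fold with intervals above it. Farsb (28.6 and 63.7 CPM), Tars (20.9 and 46.2 CPM), Aars (50.5 and 109.5 CPM), Lars (26.5 and 57.4 CPM) and Vars (17.9 and 35.8 CPM) followed at 1.15, 1.14, 1.12, 1.12 and 1.00. Tars, below 1.5-fold between libraries, passed 2-fold here.

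Cars and Iars lay between 1.5-fold and 2-fold, with log2 ratios of 0.98 and 0.86. Hars had 0.55 and Farsa 0.26 (-0.06 to 0.59), so that the interval of Farsa held 0. Qars (36.0 and 34.2 CPM, -0.07), Dars (118 and 131 CPM, 0.15, interval -0.03 to 0.34) and Rars (29.9 and 31.0 CPM, 0.05, interval -0.32 to 0.43) differed by less than their counting error. Dars and Rars are members of the multi-synthetase complex and had been 1.5-fold higher between libraries. Of the 8 complex members 4 were at least 1.5-fold higher here, with a median of 0.53, and of the 11 free genes 9 were, with a median of 1.14. Over all genes the share was 15.1% and the median 0.17. Single members ran from -0.07 to 1.40 in the complex and from 0.26 to 1.41 among the free genes, so their ranges overlapped. Gars stood at 32.6 and 87.9 CPM, a log2 ratio of 1.43, Xpot at 35.1 and 76.6 CPM, 1.13, and Kars at 28.6 and 33.1 CPM, 0.21.

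Among mitochondrial forms, Nars2 had 11.1 and 20.7 CPM and a log2 ratio of 0.90 (0.35 to 1.49), and Ears2 had 0.60. Fars2 was at 65.6 and 89.6 CPM, a log2 ratio of 0.45 (0.21 to 0.69), and Hars2 and Sars2 had 0.52 and 0.43. At the other end, Aars2 and Pars2 had -0.12 and -0.16. The cytosolic ratio exceeded the mitochondrial one in 15 of 17 amino acid pairs, with intervals apart in 5 (alanine, methionine, proline, threonine and tyrosine), and arginine was among the exceptions. Mitochondrial forms were 21.2% (19.95 to 22.6) of the synthetase UMIs in cells at or above 1% and 14.3% (13.7 to 14.9) in cells under it.

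Finer steps of the mitochondrial transcript share showed where the levels parted. In Opa1 cKO, the summed cytosolic forms were at 1934 (1888 to 1982) CPM in 993 cells under 0.5%, 1869 CPM in 585 cells from 0.5% to 1% and 1727 CPM in 164 cells from 1% to 2%. From 2% to 4% the level was 1080.3 (1003 to 1162) CPM in 205 cells, from 4% to 6% it was 735 (686 to 787) CPM in 346 cells, and from 6% it was 678 (627 to 732) CPM in 293 cells. The widest step thus lay between the cells under 2% and those above. Mitochondrial forms ran over the same steps from 322 to 218 CPM, with a high of 341 CPM between 1% and 2%.

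CT cells could be set beside Opa1 cKO cells of the same mitochondrial transcript share from 2% upward. From 2% to 4% the cytosolic level in 307 CT cells was 786 (724 to 852) CPM, below the 1080.3 CPM of Opa1 cKO. From 4% to 6% it was 647 (607 to 689) CPM in 554 CT cells, and from 6% it was 612 (573 to 654) CPM in 503 CT cells. Opa1 cKO was higher in both of these steps, at 735 and 678 CPM. The intervals of CT and Opa1 cKO overlapped there, which does not show equal levels, and no ratio interval was taken. The mitochondrial forms were at 280.4, 239 and 218 CPM in CT against 266, 235 and 218 CPM in Opa1 cKO, with overlapping intervals in each step. Among these steps from 2% upward, the cytosolic level of CT too was highest in the step of lowest mitochondrial transcript share. Below 2% CT had few cells. The 11 CT cells from 1% to 2% had 727 (407 to 1199) CPM and the 3 under 1% had 1299 (522 to 2677) CPM.

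**Figure D4:**
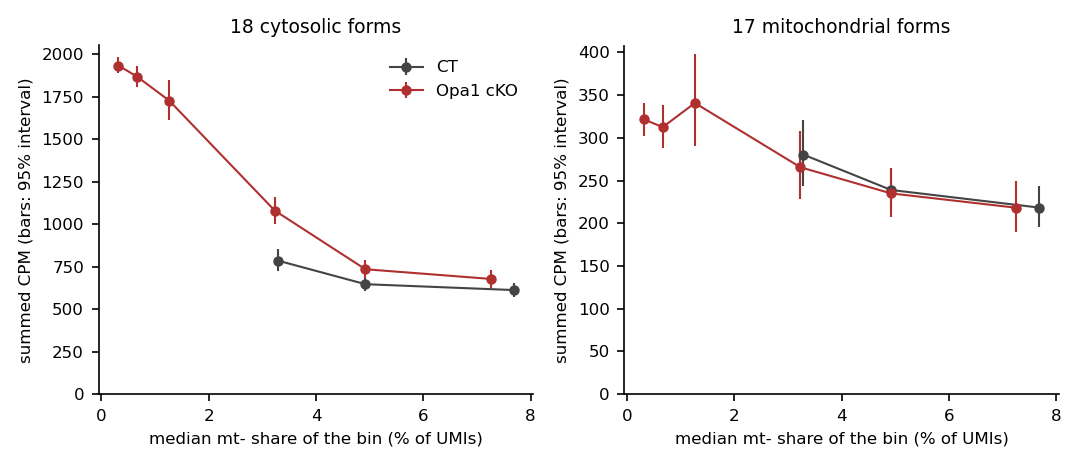
Summed level in CPM of the cytosolic forms and of the mitochondrial forms in NSC pool-like cells, by the share of UMIs from mitochondrially encoded mRNAs, for CT and Opa1 cKO, with exact 95% counting intervals. The cytosolic forms in Opa1 cKO run from 1934 CPM under 0.5% to 678 CPM from 6%, and the mitochondrial forms from 322 to 218 CPM.

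A lower count of mitochondrially encoded mRNAs leaves more of a library's UMIs to all other genes. With those mRNAs removed from the denominator, the cytosolic forms were at 704 CPM in CT, 982 CPM in Opa1 cKO cells at or above 1% and 1919 CPM in those under it, and the mitochondrial forms at 254, 265 and 319.8 CPM. The order of the groups was the same as with all UMIs.

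Per cell, the cytosolic forms had the same order of groups. With each cell thinned to 1500 UMIs, a CT cell held on average 1.01 UMIs of the 18 cytosolic genes, an Opa1 cKO cell at or above 1% held 1.42 and one under 1% held 2.82, with medians of 1, 1 and 3. The mean for the mitochondrial forms was 0.361, 0.354 and 0.483 UMIs. Cells without any cytosolic synthetase UMI made up 39.6% of CT, 28.7% of Opa1 cKO at or above 1% and 7.45% of Opa1 cKO under 1%, and 22.4%, 12.996% and 2.15% before thinning. Cells with 5 or more made up 0.779%, 3.84% and 17.3% after thinning. The thinning left out 94, 70 and 129 cells with fewer UMIs. No cell type lacks these genes, so no background share could be read for them.

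In the 1008 Opa1 cKO cells at or above 1%, the cytosolic forms still stood above CT, by a smaller amount. Against 1375 CT cells in the same range of mitochondrial transcript share, 6 of 18 genes were at least 1.5-fold higher, against 4.93% of 10614 genes, and 1 was at least 2-fold higher, against 1.41%. None was 1.5-fold lower, against 12.7% of all genes. The median log2 ratio was 0.50, where that of all genes was -0.06, and the sum was 661 (636 to 688) against 933 (900.2 to 967) CPM, a log2 ratio of 0.50 (0.42 to 0.57). This difference depended on the cut, since at 2% the summed log2 ratio was 0.27 with 2 genes past 1.5-fold (3.90% of all genes) and at 0.5% it was 0.95 with 12 (8.96% of all genes). These cells spread to lower mitochondrial transcript shares than the CT cells, as the finer steps show, and they share their CT cells with the comparison of whole libraries.

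Cars again led, at 12.99 and 33.3 CPM and a log2 ratio of 1.36 (0.86 to 1.87), the only gene above 2-fold. Sars was at 62.3 and 112 CPM, 0.85 (0.61 to 1.09), and Nars, Yars, Eprs and Mars had log2 ratios of 0.67, 0.65, 0.64 and 0.59. Rars (20.1 and 29.9 CPM, 0.57, interval 0.12 to 1.02) and Dars (81.1 and 118 CPM, 0.54, interval 0.32 to 0.76) had intervals above 0. Between the Opa1 cKO groups their intervals held 0. For each gene the intervals of both comparisons overlapped, and the difference between the comparisons was not tested. Iars had 0.56, followed by Lars at 0.47, Wars at 0.45, Aars at 0.35, Hars at 0.35 and Farsb at 0.08. Vars (-0.03), Qars (-0.04), Farsa (-0.08) and Tars (-0.24) were at or under the level of CT. Gars, Kars and Xpot had 0.39, 0.30 and 0.36.

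Mitochondrial forms summed to 239 (223 to 255) and 252 (235 to 269) CPM, a log2 ratio of 0.08 (-0.06 to 0.21), with a median of 0.11. Wars2, Yars2, Vars2 and Ears2 were the 4 of 17 at least 1.5-fold higher, against 4.93% of all genes. Their log2 ratios were 0.74, 0.71, 0.70 and 0.59, and of these the interval of Yars2 alone (0.05 to 1.39) lay above 0. None of the 6 with at least 100 UMIs passed 1.5-fold, against 2.45% of all genes of that depth. With 6 genes, such a count cannot be told apart from that share. The cytosolic form had the higher ratio in 13 of 17 pairs, with intervals apart for cysteine and serine.

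Atf4, Ddit3 and Trib3 were read in the same groups. Atf4 had a log2 ratio of 1.45 between libraries, 1.47 for Opa1 cKO cells under 1% over the others, and 0.38 for the others over CT. Ddit3, which encodes the transcription factor CHOP, had 2.78, 1.94 and 1.32. Trib3, a pseudokinase that restrains ATF4, had 719 UMIs in Opa1 cKO against 0 in CT. Over a floor of 3 UMIs in CT its log2 ratio was 6.73 (106-fold), with a lower counting limit of 6.43. For Opa1 cKO cells under 1% over the others Trib3 had a log2 ratio of 2.39 (2.04 to 2.75). Opa1 had -0.65 (-1.38 to 0.07) under 1% over the others and -0.83 for the others over CT.

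Markers of other cell types were read in the same 3 groups of NSC pool-like cells, in the order CT, Opa1 cKO at or above 1% and Opa1 cKO under 1%. The 5 oligodendrocyte precursor markers summed to 108, 185 and 403 CPM, in the order of the cytosolic synthetases. Most of that was Olig1 (88.1, 163 and 354 CPM), and Olig2 ran in the same order (17.5, 18.8 and 47.0 CPM). Cspg4 and Lhfpl3 did not, and Pdgfra, which defines these precursors, had 0 UMIs in all 3 groups. The 6 microglia markers summed to 16.1, 48.7 and 22.4 CPM, with 2 of them at 0 under 1%. Ependymal markers (166, 188 and 82.5 CPM), mural markers (187, 151 and 131 CPM), endothelial markers (42.3, 32.6 and 29.9 CPM), oligodendrocyte markers (376, 449 and 404 CPM) and mature neuron markers (7.94, 12.0 and 7.04 CPM) did not follow that order as sums, and neither did those of activated NSC (836, 978 and 766 CPM) or of progenitors and neurons (187, 161 and 170.2 CPM). Single markers in them did: Foxj1 (1.32, 5.54 and 6.47 CPM) and Dynlrb2 among 7 ependymal markers, and Cldn5 among 7 endothelial markers. Ccnd2 and Mycn among 10 of activated NSC and Stmn1 among 12 of progenitors and neurons did too. Of the 7 ependymal markers, 5 were at least 1.5-fold higher in Opa1 cKO than in CT and 2 at least 1.5-fold lower. The shares over all genes were 13.9% and 13.4%. The 12 NSC pool markers summed to 75188, 78991 and 60499 CPM, most of it Apoe (43030, 46643 and 32617 CPM). Among them Gfap ran in the order of the cytosolic synthetases (456, 636 and 1389 CPM), as did Aldoc by a small margin, while Id3 was lowest under 1% (661, 736 and 359 CPM). The part of these differences in the synthetase values was not tested.

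The other cell classes in the sort were read in the same way, with far fewer cells. Progenitor and neuron-like cells, led by Igfbpl1, Sox11 and Tubb3, already had 1282 (1180 to 1391) CPM of cytosolic forms in 139 CT cells, above CT NSC pool-like cells, and 1865 (1756 to 1980) CPM in 169 Opa1 cKO cells, a log2 ratio of 0.54 (0.39 to 0.69). Their mitochondrial forms were at 273 and 351 CPM, 0.36 (0.03 to 0.69). Of the 18 cytosolic genes 14 were higher, where the median log2 ratio of all genes in this class was -0.02. Lars had 1.41 (0.50 to 2.43), Mars 1.28 (0.38 to 2.26), Cars 1.11 (0.23 to 2.07) and Eprs 0.91 (0.52 to 1.32). The 4 that were not higher were Qars at -0.18 (-1.09 to 0.73), Farsa at -0.28 (-0.91 to 0.35), Vars at -0.96 (-1.81 to -0.14) and Iars at -0.99 (-2.04 to 0.01). Vars and Iars thus lay on the other side of 0 from NSC pool-like cells, where they had 0.66 and 1.14, and the interval of Vars lay below 0.

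Mural-like cells, led by Vtn and Higd1b, gave the highest ratio outside the NSC pool, from 661 (542 to 798) CPM in 94 CT cells to 1513 (1384 to 1650) CPM in 167 Opa1 cKO cells, a log2 ratio of 1.19 (0.89 to 1.51). Their mitochondrial forms were at 251 and 235 CPM, -0.09 (-0.66 to 0.49). Of the 12 cytosolic genes with at least 20 UMIs 11 were higher, where the median log2 ratio of all genes in this class was 0.05. That floor counts the UMIs of both libraries, and none of the 12 reached it in CT alone, where Yars had the most with 14 UMIs. Their Opa1 cKO counts thus helped to select them, so this tally adds no support to the summed ratio. The summed level takes every cytosolic gene, whatever its count. Sars had 5 and 78 UMIs (30.6 and 232 CPM), Nars 79.6 and 256 CPM and Eprs 73.5 and 197 CPM. Among these 12, the gene that was not higher was Yars, with -0.20 (-1.20 to 0.85), against 1.64 in NSC pool-like cells. Vars, under the floor with 6 and 8 UMIs, had -0.62 (-2.34 to 1.18). The other cytosolic genes under the floor were higher in Opa1 cKO. The mitochondrial share of the synthetase UMIs was 27.5% (20.5 to 35.4) in CT and 13.5% (10.8 to 16.5) in Opa1 cKO mural-like cells.

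Ependymal-like cells, led by Tmem212 and Ccdc153, had the lowest cytosolic level, at 475 (355 to 623) CPM in 39 CT cells and 755 (700.3 to 812) CPM in 244 Opa1 cKO cells, a log2 ratio of 0.67 (0.26 to 1.10). Single genes were sparse here. Nars, on 4 UMIs in CT, had 1.56 (0.15 to 3.46) and was the only cytosolic gene with an interval above 0. Sars, on 1 UMI in CT, had 2.05 (-0.52 to 7.40), and Cars, which led in NSC pool-like cells, had -0.53 (-1.79 to 1.01). Oligodendrocyte-like cells, led by genes that include Cldn11 and Mag, were at 861 (757 to 975) and 911 (824 to 1005) CPM in 74 CT and 101 Opa1 cKO cells, a log2 ratio of 0.08 (-0.15 to 0.32), below the interval of NSC pool-like cells. Their Nars was at 135 and 84.9 CPM, -0.67 (-1.36 to 0.01), against 1.60 in NSC pool-like cells. Hars (41.7 and 94.1 CPM, 1.18, interval 0.22 to 2.24) and Dars (79.9 and 133 CPM, 0.74, lower bound 0.02) went the other way. Their mitochondrial forms were at 215 and 204 CPM. Activated NSC-like cells, led by Mycn and Ecrg4, had only 11 CT cells and 1313 (934 to 1796) CPM against 1708 (1637 to 1780) CPM in 408 Opa1 cKO cells, 0.38 (-0.08 to 0.87). A cluster with hemoglobin and endothelial genes in the lead, left without a name, was at 704 and 1086 CPM in 55 and 89 cells, 0.62 (0.36 to 0.89).

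**Figure D5:**
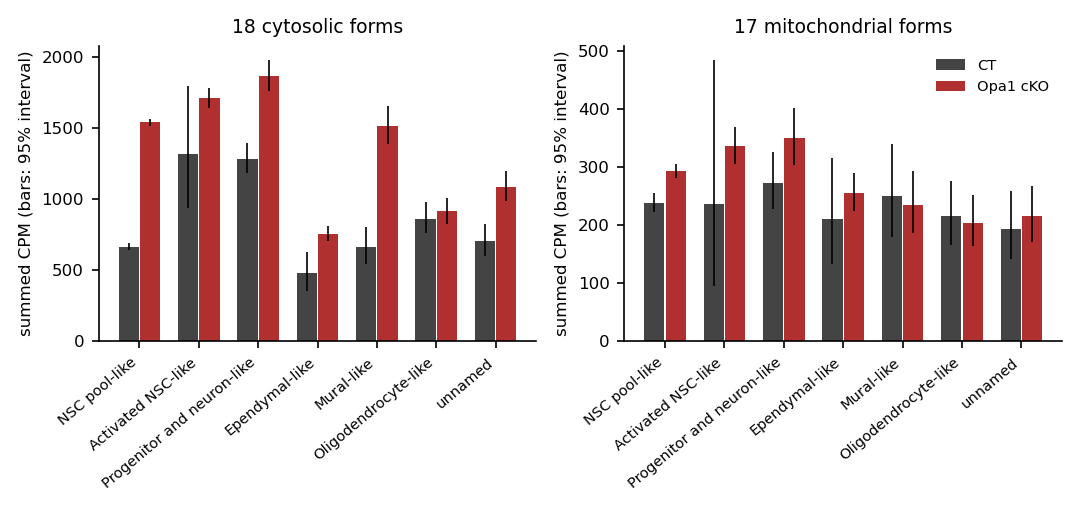
Summed level in CPM of the cytosolic and of the mitochondrial forms by cell class and library, with exact 95% counting intervals. Opa1 cKO lies above CT for the cytosolic forms in NSC pool-like (662 and 1538 CPM) and mural-like cells (661 and 1513 CPM), and the intervals overlap in oligodendrocyte-like cells (861 and 911 CPM).

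The same split was read in the other classes of the Opa1 cKO library, without a test of the difference between classes. Their cells at or above 1% are not alike in mitochondrial transcript share, with medians of 4.74% in NSC pool-like, 2.81% in mural-like, 1.87% in activated NSC-like, 1.66% in progenitor and neuron-like and 1.64% in ependymal-like cells, and in NSC pool-like cells too the level differed little between 0.5% to 1% and 1% to 2%. In mural-like cells, 48 cells under 1% had 2106 (1834 to 2406) CPM of cytosolic forms and 119 others had 1252 (1112 to 1404) CPM, a log2 ratio of 0.75 (0.49 to 1.01). In progenitor and neuron-like cells the values were 2189 CPM in 80 cells and 1581 CPM in 89 cells, 0.47 (0.29 to 0.64). In ependymal-like cells, of which 70.9% were under 1%, the levels were 763 and 737 CPM, 0.05 (-0.18 to 0.28), and in activated NSC-like cells 1808 and 1668 CPM, 0.12 (-0.02 to 0.25). None of the 101 oligodendrocyte-like cells was under 1%, and their median mitochondrial transcript share was 4.77%, against 4.85% in CT. The median mitochondrial transcript share of ependymal-like cells was 6.41% in CT and 0.684% in Opa1 cKO.

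Genes that work beside the synthetases were compared in NSC pool-like cells. Of all 11303 genes compared between libraries, 13.9% were at least 1.5-fold higher, with a median log2 ratio of 0.03. Of the scaffold and accessory proteins of the multi-synthetase complex (Aimp1, Aimp2 and Eef1e1), 1 of 3 was at least 1.5-fold higher between libraries, Eef1e1 with a log2 ratio of 1.02, and the median was 0.38. The factors that bring charged tRNAs to the cytosolic ribosome and move it along had a median of 0.67, with Eef1a1 at 1.17, Eef1g at 0.87 and Eef2 at 0.67 as the 3 of 5 past 1.5-fold. Among 12 other genes of tRNA handling, Trnt1, which adds the CCA end to tRNAs, had 1.13, Prorsd1 1.11 and Tarsl2, a threonyl enzyme whose symbol lies outside the rule, 0.69. Sepsecs, the last enzyme of selenocysteine tRNA synthesis, had -0.68, and the median of the 12 was 0.35.

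On the mitochondrial side, none of the 4 genes of the route that makes glutaminyl-tRNA and formyl-methionyl-tRNA passed 1.5-fold, with a median of 0.41. With 4 genes, such a count cannot be told apart from the 13.9% of all genes. Of 8 mitochondrial translation factors, the elongation factors Gfm1 (0.76) and Tsfm (0.75) and the initiation factor Mtif3 (0.75) did, with a median of 0.26, equal to that of the mitochondrial synthetases to 2 decimals. For Opa1 cKO cells under 1% over the others, the median of all genes was 0.17. Against it the medians were 0.44 for the complex scaffold and 0.59 for cytosolic elongation. Other tRNA handling (0.18), the glutaminyl and formyl route (0.23) and the mitochondrial factors (0.20) lay close to the median of all genes.

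The stretch around the start of each gene was searched, from 250 bases before it to 50 bases after it. The letters sought were those of motifs known for ATF4 and for the mitochondrial biogenesis factor NRF1. Most cytosolic genes were at least 1.5-fold higher between libraries and most mitochondrial forms were not, which prompted the search. RefSeq promoters (GRCm38.p6) matched 28 of the 38 genes, 11 cytosolic, 14 mitochondrial, Gars, Kars and Xpot. The starts are those of these promoters and can differ from the gene coordinates given above, as for Yars. The C/EBP-ATF composite TGATGNAA, on either strand, was in 5 of the 28, namely Aars, Gars, Iars, Tars and Yars, and in 4.51% of 27025 promoters. It was in 4 of 11 cytosolic genes and 0 of 14 mitochondrial forms. With 14 genes, a count of 0 cannot be told apart from the 4.51% of all promoters. A match of each gene is shown with 10 bases on either side and the motif in capitals, 5′ to 3′ on the strand of the gene. The genes are on the plus strand except Tars, and the matches shown read in the opposite direction to the gene except that of Yars.
Aars, chr8:111033841-111033868, 10 bases after the start: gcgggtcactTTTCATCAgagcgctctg
Gars, chr6:55037961-55037988, 30 bases before the start: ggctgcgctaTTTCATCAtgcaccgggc
Iars, chr13:49682127-49682154, 8 bases after the start: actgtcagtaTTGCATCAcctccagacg
Tars, chr15:11399656-11399683, 15 bases before the start: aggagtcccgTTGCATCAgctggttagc
Yars, chr4:129189896-129189923, 4 bases after the start: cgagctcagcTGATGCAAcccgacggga

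The log2 ratios between libraries of these genes were 1.13 for Aars, 1.41 for Gars, 1.14 for Iars, 0.56 for Tars and 1.64 for Yars. Genes without the letters in this window were as high, among them Sars with 1.75, Eprs with 1.65 and Mars with 1.55. For Cars, Nars, Wars, Lars, Hars, Vars and Rars no promoter was matched. The absence of the letters from a window says nothing of the factor, and their presence is not a binding site.

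The NRF1 letters GCGCANGCG, on either strand, were in 7 of the 28 promoters and in 7.03% of all. They were in 4 of 14 mitochondrial forms (Iars2, Mars2, Vars2 and Wars2), 2 of 11 cytosolic genes (Farsb and Tars) and Kars. The matches of the mitochondrial forms are shown in the same way, with Mars2 and Wars2 on the plus strand and Iars2 and Vars2 on the minus strand, to set beside those of the cytosolic genes.
Iars2, chr1:185329374-185329402, 10 bases after the start: cgccccggagCGCGTGCGCagttcctcgc
Mars2, chr1:55237169-55237197, 3 bases after the start: ccgtccagctGCGCACGCGccctttcccg
Vars2, chr17:35667621-35667649, 47 bases before the start: gagtcttttaCGCATGCGCctgcgtgtcc
Vars2, chr17:35667595-35667623, 21 bases before the start: tccccgcccaCGCATGCGCgcgcacctcg
Wars2, chr3:99141016-99141044, 64 bases before the start: cagaggacagGCGCATGCGtagtaagcac

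Of these, Wars2 and Vars2 had log2 ratios between libraries of 0.96 and 0.81, and Mars2 and Iars2 had 0.20 and -0.25. The 4 genes thus held both the highest and the lowest ratios found among mitochondrial forms other than Ears2, and the letters did not go with 1 direction.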

How the data were processed

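Single-cell RNA from YFP+, propidium iodide negative hippocampal cells was counted by the authors with Cell Ranger 2.1.1 on mm10, per the submitters' processing notes; the matrix headers name version 3.1.0, and the annotation used for counting is not given in the sources used here. The deposited counts are whole UMI counts per gene and barcode without normalization, and include barcodes outside the study's filters. In all there were 10799936 UMIs over 4634 barcodes for CT and 18662032 UMIs over 6475 barcodes for Opa1 cKO, with 36 barcode sequences in common. Kept cells had over 600 and under 7500 detected genes, under 20% mitochondrial UMIs and at least 1 YFP UMI.

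Cells were normalized with SCTransform and clustered with Seurat 5.3.0 and sctransform 0.4.2 in R 4.3.3, on 8 dimensions at a resolution of 0.2. Clusters were named from fixed markers, by the type with most markers among the 50 genes of highest fold over the median of the other clusters. At least 3 markers, and 33.3% of the list, had to have a log2 fold over 1, and a cluster with more markers of another type among its 10 leading genes stayed unnamed. How clusters are named was altered once the clusters were known. Scrublet (scanpy 1.11.5) called 5 CT and 1 Opa1 cKO barcodes as doublets, under 0.5% of barcodes, so this caller did not work and doublets stayed in.

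UMIs were summed per library and class with python 3.11.15, numpy 2.4.6, pandas 2.3.3, scipy 1.17.1 and matplotlib 3.10.9. CPM values have exact Poisson intervals, shares have Clopper-Pearson intervals, and those of log2 ratios were taken exactly from the binomial distribution of 1 count given the sum of both. Genes with at least 20 UMIs in the compared cells were used. A gene at 0 in 1 group was set at a floor of 3 UMIs over that group. Of these steps, only the log2 ratios and their intervals were checked on simulated data, drawn with counting error alone. No p-value was computed, since cells are not replicates. Members, gene lists and the 1% cut on the mitochondrial transcript share were chosen with earlier results of these data known. The rule for named genes was every member by name, with full values for those with 100 or more UMIs in NSC pool-like cells and those on different sides of 1.5-fold between classes. Atf4, Ddit3, Trib3 and genes that lead clusters are named beside them. The alternatives, 15 planned and 1 added after seeing the data, concerned cell filters, clustering, doublets, depth, denominator, weighting, the split and the placing of Gars and Kars. Coordinates come from GENCODE M21 (mm10), matched for all 38 genes, and promoters from RefSeq (GRCm38.p6), matched by symbol or synonym. Some single values are not reported here and are left out of the figures; sums and counts over the genes include them.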

Additional observations from a re-analysis of the deposited data

Results flagged for a closer look

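NSC pool-like barcodes without a YFP UMI, which the comparisons above leave out, also had more cytosolic synthetase mRNA in the Opa1 cKO library than in the CT library. Over 1860 CT and 1544 Opa1 cKO barcodes the summed level was 646 and 1195 CPM, a log2 ratio of 0.89 (0.82 to 0.96), where the median of all genes was 0.00. Of the 18 cytosolic genes 13 were at least 1.5-fold higher, with a median of 0.96, and of the 17 mitochondrial forms 4 were, against 8.80% of all genes. The mitochondrial forms summed to 237 and 267 CPM, a log2 ratio of 0.17 (0.04 to 0.30). A mitochondrial transcript share under 1% was found in 35.5% of these Opa1 cKO barcodes and 0.215% of the CT barcodes. All cells had been sorted for YFP. At this depth a cell that carries the reporter can lack a YFP UMI, but whether these barcodes are such cells was not tested.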

How the results depend on the processing

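Over the alternatives, 248 summary values moved by less than their counting interval, or by less than 1.5 times for a count, 36 moved by more and none changed sign. Of the values of single genes, 841 stayed within their interval and 58 did not. The cut on the mitochondrial transcript share moved the results most. Split at 0.5%, the cytosolic forms under over at or above the cut had a summed log2 ratio of 0.60, a median of 0.55 and 8 genes at least 1.5-fold higher, and the cells at or above it over CT had 0.95, 0.93 and 12 genes. Split at 2%, the sums were 1.25 and 0.27, with 2 cytosolic genes past 1.5-fold over CT and 5 of 17 mitochondrial forms under over above the cut, where 20.4% of all genes passed. Cells under 0.5% against those over 2% gave 1.28, and the latter over CT gave 0.27 with 2 genes. Without the highest 5% of doublet scores, an alternative chosen after seeing the data, the cytosolic sum under over at or above 1% was 1.11 and 3 genes passed over CT. It was 0.97 with mitochondrially encoded genes out of the denominator.

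With no YFP UMI required, the cytosolic sum between libraries was 1.15, that of mural-like cells 0.87, and 2 mitochondrial forms passed 1.5-fold over CT at or above 1%, as with cells thinned to 1500 UMIs. Among mitochondrial forms with 100 or more UMIs, 2 passed between libraries, 1 within Opa1 cKO and 0 at or above 1% over CT. At 2-fold, 0 mitochondrial forms passed in each of the 3 comparisons and 1 cytosolic gene passed at or above 1% over CT. Clustering on log-normalized counts left 1 mitochondrial form past 1.5-fold within Opa1 cKO. Counting Gars and Kars with the mitochondrial forms gave summed log2 ratios of 0.45 between libraries and 0.49 within Opa1 cKO, and mitochondrial shares of 30.2% in CT, 20.3% in Opa1 cKO, 25.1% at or above 1% and 18.7% under it. Counted with the cytosolic forms, the shares were 15.2% in Opa1 cKO and 13.5% under 1%. Apart from settings whose own construction changes the members, the fold or the cells compared, the cause was not tested.

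No paired analysis was possible because each genotype is 1 library. For the same reason no replicate was left out. Depth limits single mitochondrial forms, several of which had fewer than 50 UMIs in CT, and nearly all single genes in classes outside the NSC pool.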
